A study of Mus musculus with 12 samples.

Results

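The transcripts of resting cortical astrocyte-enriched cultures were described in the 3 libraries of cells that received the control virus and the buffer PBS, out of 12 libraries in the series. They were chosen by their sample labels alone, and no contrast with another group was made. The cultures came from newborn C57BL6/J mouse forebrain grown in medium with horse serum, shaken at confluency to detach other glia and replated. All cultures had been treated for 5 days with a lentivirus, and the share of cells it transduced was not measured here. In the control the virus carried the pCIG3 (pCMV-IRES-GFP) vector, in which the CMV promoter, active in many cell types, drives GFP. PBS was bath-applied for 30 min and RNA was harvested after 90 min of recovery, so "resting" here means virus-treated, serum-grown and PBS-treated. The other 9 libraries received VIP (vasoactive intestinal peptide) at 0.5 µM, a vector for ACREB (a dominant negative form of the transcription factor CREB), or both, and were used only for scaling. The labels do not say whether the replicates came from separate cultures or animals, so the spread between them may be technical.

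Astrocytes clear glutamate and potassium from the extracellular space, pass lactate and glutamine to neurons, exchange ions and small molecules through gap junctions, and secrete lipoproteins and matrix. In culture with serum they divide and take on features of immature and of reactive astrocytes. VIP acts through the G-protein-coupled receptors VPAC1 (Vipr1) and VPAC2 (Vipr2), and the related peptide PACAP acts through these and through PAC1 (Adcyap1r1). These receptors raise cyclic AMP, which activates CREB (Creb1).

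The libraries held 19236341, 17960720 and 18483026 counts for replicates 1, 2 and 3. Levels are given as CPM, counts scaled to 1000000, on adjusted library sizes, one value per library and then the mean ± SD (n = 3). The order by CPM is an order of counts, which favours long transcripts. Levels of different genes are compared per kilobase of exon, as TPM, transcripts scaled to 1000000. A gene is called expressed at a mean CPM of at least 1, a level reached by 13187 of 21980 protein-coding genes (60.0%). A gene with no count in a library could still lie at up to 0.156 to 0.172 CPM there (3 counts), a limit that covers counting error only.

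Library 2 stood apart from the other 2 before any gene was considered. Across 14652 expressed genes, Pearson's r of log2 CPM (pseudocount 0.5) was 0.99 between libraries 1 and 3, but 0.95 between 1 and 2 and 0.95 between 2 and 3, as a description. Protein-coding genes in the lowest GC quintile of transcripts had a median log2 departure of -0.89 in library 2 from the mean of the other two, against 0.38 in the highest quintile. Genes in the quintile with the longest transcripts had a median of -0.51 in library 2, against 0.33 in the quintile with the shortest. GC content and length, fitted together with squared terms, took up 52.1% of the variance of library 2's departures. What set this library apart was not tested, and the SD of a gene given only as mean ± SD includes it. Counts of genes highest or lowest in a given library are printed below without the share over all genes, which was not computed.

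**Figure D1:**
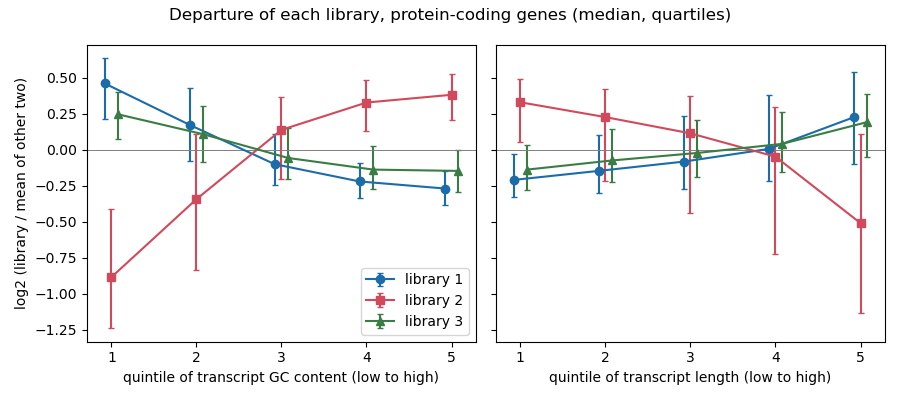
Median log2 departure of each library from the mean of the other two (y axis) for quintiles of protein-coding genes by transcript GC content (left) and length (right), with bars for the quartiles. Library 2 runs from -0.89 in the lowest to 0.38 in the highest GC quintile, and the other 2 libraries, each set against a mean that includes library 2, slope the opposite way.

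The 30 genes with the highest mean CPM were led by an astrocyte phosphoprotein, intermediate filaments, insulin-like growth factor binding proteins, a lipoprotein and mitochondrially encoded subunits. The gene with the most counts was Pea15a (ENSMUSG00000013698, GRCm38 chromosome 1, 172196728 to 172206804), which encodes a phosphoprotein first described in astrocytes. It stood at 7084, 10293 and 5271 CPM (7549 ± 2543). It was highest in library 2, and its exons overlap Dcaf8 on the other strand, so its count is uncertain where strand was not used in counting. Such overlaps are remarked on below for some genes only, and others, such as Gapdh, Cnp and Csf1r, have them too. Vim, the intermediate filament vimentin of immature and cultured astrocytes, stood at 5710, 8393 and 6086 CPM (6730 ± 1452). Apoe, the main lipid carrier released by glia, stood at 3588, 4825 and 5765 CPM (4726 ± 1092). Library 1 held the least Apoe and library 3 the most.

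Secreted and matrix proteins filled several of the next places. Igfbp5, which binds insulin-like growth factors, stood at 5884, 5313 and 4568 CPM (5255 ± 660). Its relative Igfbp2 stood at 2028, 4394 and 1657 CPM (2693 ± 1485), with library 2 above both others. Sparc, a matricellular protein that binds collagen, stood at 4259, 5347 and 3971 CPM (4526 ± 726). Cpe, a carboxypeptidase that trims peptide hormones, stood at 2620, 2815 and 2382 CPM, and Psap, the precursor of lysosomal saposins, at 2185, 2777 and 2140 CPM. Clu, the secreted chaperone clusterin, stood at 1687, 1980 and 1729 CPM. These last 3 genes varied less between libraries than Igfbp2 did.

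Cytoskeletal and contractile genes were also among the 30. Actb, cytoplasmic actin, stood at 2495, 3687 and 2494 CPM, and Flna, an actin crosslinker, at 1888, 2700 and 1944 CPM. Acta2, smooth muscle actin, stood at 1773, 2763 and 2097 CPM (2211 ± 505), and Tagln, the actin-binding protein transgelin, at 1611, 2685 and 1717 CPM (2004 ± 591). All 4 were highest in library 2, and Tagln overlaps Pcsk7 on the other strand. Nes, the progenitor filament nestin, stood at 1872, 2282 and 1717 CPM. Tmsb4x, which sequesters actin monomers, and Cnn3, an actin-binding calponin, completed this set with 2482 ± 174 and 1586 ± 159 CPM.

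Metabolic and housekeeping genes made up the remainder. Ckb, the brain creatine kinase, stood at 2950, 4996 and 3078 CPM (3675 ± 1146), and Scd2, which desaturates fatty acids, at 3011, 3324 and 3334 CPM (3223 ± 184). Slc1a3, the glutamate transporter GLAST, stood at 2082, 1817 and 2068 CPM (1989 ± 149) and was the only cell-surface transporter of the 30. Eef1a1 and Eef2 (translation elongation), Gapdh (glycolysis), Fth1 (iron storage), Ctsb (a lysosomal protease), Hspa8 and Hsp90ab1 (chaperones) ranged from 1619 to 4017 CPM in their means. The mitochondrially encoded mt-Co1, mt-Cytb, mt-Nd1 and mt-Nd5 had means of 7143, 3366, 2126 and 1901 CPM. Of the 30 genes, 23 were highest and 4 lowest in library 2, and 7 overlap an exon on the other strand.

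**Figure D2:**
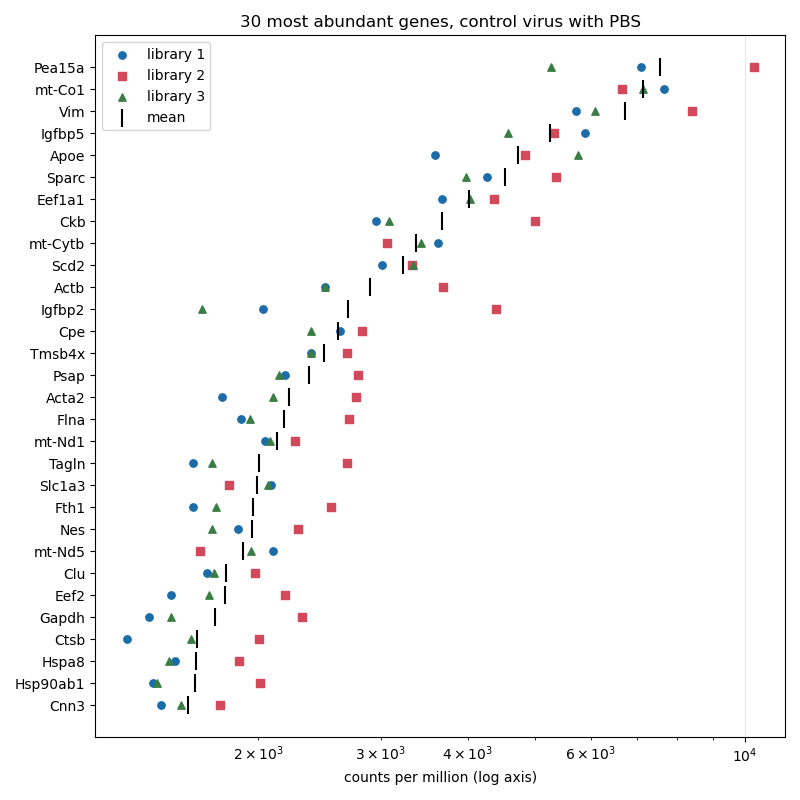
The 30 genes with the highest mean CPM (log x axis), with a symbol for each library and a bar for the mean. Means run from 1586 to 7549 CPM, and library 2 (squares) is the highest of the 3 libraries for 23 of the 30 genes.

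Per kilobase the order differed. On the TPM scale mt-Co1 led with 16514 ± 2246, and 18 of the 30 genes stayed among the 30 highest. Apoe had 7868 ± 1962 TPM, Pea15a 6854 ± 1799 and Tmsb4x 6424 ± 51, which lay within or close to each other's spread. The metallothioneins, small metal-binding proteins, which have short transcripts, stood higher on this scale, with 5851 ± 230 TPM for Mt2 and 3405 ± 254 for Mt3. Slc1a3, with many annotated exons, had 833 ± 121 TPM.

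The counts were spread over many genes. The 10 most abundant genes held 4.74, 5.64 and 4.76% of the counts in libraries 1, 2 and 3, and the 100 most abundant held 16.1, 19.0 and 16.0%. Mitochondrially encoded genes held 1.87, 1.62 and 1.80%, and 90 cytoplasmic ribosomal protein genes held 2.21, 2.73 and 2.47%. Reaching 50% of all counts took 1189, 973 and 1213 genes, fewest in library 2.

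Promoters were read from the RefSeq table (GRCm38.p6), which holds 250 bases before each listed start, and 5 motifs were searched after the data had been seen. Protein-coding genes without the mitochondrial ones were used, and 242 of the 300 most abundant matched, with 318 starts. TATAAA, the TATA box core, was searched on the sense strand. Between 50 and 11 bases before the start it was found at 4.09% of these starts, against 2.40% of all 32851 starts in the table. Over all 250 bases it was found at 7.86%, against 7.59%. The other motifs were searched on both strands over 250 bases. The cyclic AMP response element TGACGTCA was found at 2.52% against 1.55%, and its core TGACG, which it contains, at 31.1% against 17.8%. CCAAT was found at 41.5% against 33.8%, and GGGCGG at 57.9% against 32.7%. Over all expressed genes the shares were 1.22% and 3.76% for TATAAA in the narrow and wide windows, 2.57% for TGACGTCA, 25.7% for TGACG, 35.1% for CCAAT and 57.3% for GGGCGG. Of those genes 78.7% matched the table, too few for a comparison, and nothing is read as particular to the most abundant genes. A match is a run of letters and not a shown binding site, and no test was made. Of the 30 most abundant genes outside the mitochondrial genome, 20 matched, and 2 held TATAAA in the narrower window. These 2, Vim and Ckb, are shown because they hold TATAAA there, as the 60 bases before the start with TATAAA in capitals.
Vim (chr2:13574251-13574310, plus strand): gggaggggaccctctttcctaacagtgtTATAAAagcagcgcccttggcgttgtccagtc
Ckb (chr12:111672339-111672398, minus strand): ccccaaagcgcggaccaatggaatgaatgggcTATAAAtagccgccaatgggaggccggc

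Astrocyte markers were expressed at high levels, and markers of microglia and the oligodendrocyte lineage were present beside them. Of 171 marker genes in 13 lists, 134 (78.4%) were expressed, against 60.0% of all protein-coding genes. The marker lists were chosen with earlier results of these data known, and the count of each list stands beside that 60.0%. Of 20 astrocyte markers 19 were expressed, with a median of 282 TPM over the list, against 23.5 TPM over all expressed protein-coding genes. Gfap, the astrocyte intermediate filament, stood at 1492, 1565 and 1108 CPM (1388 ± 246). Aldh1l1, a folate enzyme used as a pan-astrocyte marker, stood at 417, 664 and 457 CPM (513 ± 133) and overlaps an antisense gene. Both were highest in library 2. Fabp7, a fatty acid binding protein of radial glia and astrocytes, had 2939 ± 171 TPM, the most of the list. Mlc1, a membrane protein of astrocyte endfeet, had 1719 ± 20.7 TPM and Glul, glutamine synthetase, 1471 ± 316 TPM. The lowest of the list per kilobase were Gjb6 (connexin 30, 0.072 TPM), which was not expressed at 0.0542 CPM, Cldn10 (2.26 TPM), Ntsr2 (21.7 TPM) and S100b (27.3 TPM). In bulk RNA, fewer cells of a type and less RNA per cell cannot be told apart, here and in what follows.

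All 16 microglial markers were expressed, with a median of 187 TPM over the list. Cx3cr1, the fractalkine receptor of microglia, stood at 144, 158 and 291 CPM (198 ± 81.1). Ctss, a lysosomal cathepsin, stood at 253, 336 and 620 CPM (403 ± 192). C1qa, a subunit of complement C1q, stood at 168, 268 and 326 CPM (254 ± 79.9). For all 16 markers library 3 was highest, and for 15 library 1 was lowest. The summed level of the list was 2020, 2753 and 3931 CPM, 1.95-fold higher in library 3 than in library 1. Per kilobase Slc1a3 exceeded Cx3cr1 by 7.62, 6.05 and 3.75-fold in the 3 libraries.

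All 15 oligodendrocyte lineage markers were expressed, 12 of them at 1 CPM or more in each library. Pdgfra, the growth factor receptor of oligodendrocyte precursors, stood at 194, 132 and 200 CPM (175 ± 37.9). Olig1, a transcription factor of the lineage that astrocyte precursors can also make, stood at 637, 1018 and 590 CPM and its relative Olig2 at 196, 298 and 180 CPM. Cnp, an enzyme of myelin-forming cells, stood at 203, 259 and 205 CPM. Per kilobase the markers of mature myelin Mbp (25.1 ± 10.6 TPM), Mag (5.43 ± 2.55 TPM) and Mog (2.16 ± 1.13 TPM) were lower than Pdgfra (62.9 ± 17.5 TPM). Pdgfra and Mbp were lowest in library 2, and Olig1 and Olig2 were highest there.

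**Figure D3:**
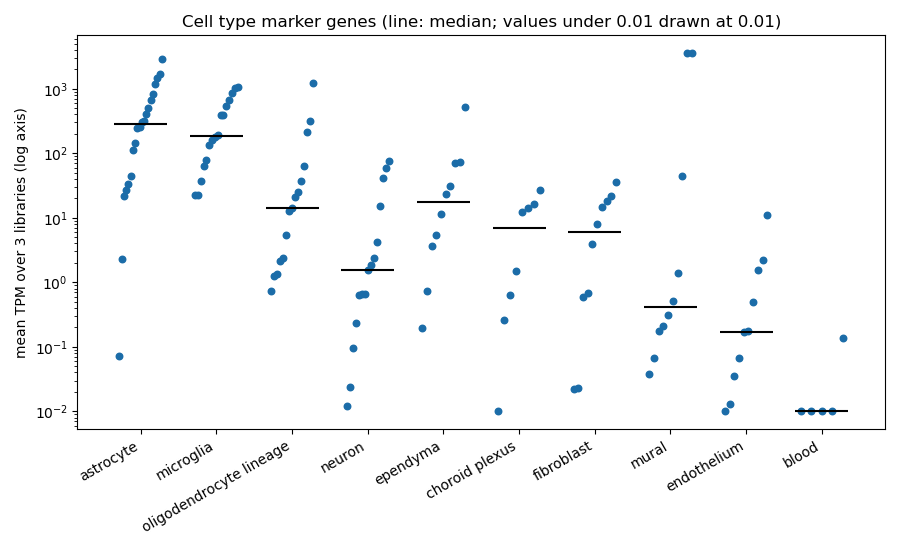
Mean TPM over the 3 libraries (log y axis) of every marker gene by cell type, with a line at each list's median; values under 0.01 are drawn at 0.01. By list median, astrocyte and microglial markers lie highest and endothelial and blood markers lowest. As single genes, Acta2 (3548 TPM) and Tagln (3539 TPM) stand far above the other mural markers. They also lie above Fabp7 (2939 TPM), the highest astrocyte marker.

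Neuronal genes were mixed. Of 15 neuronal markers 10 were expressed, a share near the 60.0% of all protein-coding genes, and the median of the list was 3.35 CPM. Map2, a dendritic microtubule protein, stood at 342, 127 and 322 CPM, Stmn2, a growth cone protein, at 72.9, 88.4 and 37.5 CPM, and Tubb3, neuronal tubulin, at 25.2, 77.6 and 21.9 CPM. The vesicular transporters that define transmitter type were near 0. Those for glutamate, Slc17a7 and Slc17a6, had means of 0.149 and 0.0177 CPM, and that for GABA, Slc32a1, had 0.0177 CPM. Gad1, which makes GABA, stood at 3.43, 3.97 and 2.65 CPM. Rbfox3, the NeuN antigen, stood at 1.08 CPM.

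Most endothelial, most mural and all blood markers lay below the level called expressed, though Acta2 and Tagln were among the 30 most abundant genes. Cldn5, the endothelial tight junction protein, had no count in any library, and Pecam1 and Cdh5 had means of 0.309 and 0.196 CPM. Kdr, the VEGF receptor, stood at 26.2, 13.5 and 43.3 CPM. Per kilobase it was the highest endothelial marker, with 11.2 ± 6.5 TPM, followed by Flt1 (2.22 ± 0.689 TPM) and Vwf (1.58 ± 0.482 TPM). The 4 globin genes of the blood list had no count, and Alas2, the red cell heme enzyme, had 0.0873 CPM. Of 10 mural markers 4 were expressed, namely Acta2, Tagln, Notch3 (101 ± 29.6 CPM) and Rgs5 (1.70 ± 0.948 CPM). Myh11, smooth muscle myosin, stood at 0.457 CPM, Des at 0.0748, Abcc9 at 0.0910 and Kcnj8 at 0.130 CPM. Without Acta2 and Tagln the summed mural level fell from 4320 to 104 CPM.

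Fibroblast collagens were expressed. Col1a1 stood at 52.6, 95.0 and 54.1 CPM, Col1a2 at 62.0, 95.3 and 39.1 CPM and Pdgfrb, a mesenchymal growth factor receptor, at 34.8, 41.7 and 25.4 CPM. Dcn and Lum, small proteoglycans of fibroblasts, had means of 1.10 and 0.395 CPM. Foxj1, the regulator of motile cilia, stood at 389, 402 and 375 CPM (389 ± 13.2). Per kilobase it had 527 ± 25.6 TPM, against 72.9 ± 30.9 TPM for Dynlrb2, 70.5 ± 15.2 TPM for Rsph1 and 0.722 ± 0.417 TPM for Tmem212, further ependymal markers. Foxj1 exceeded Rsph1 by 6.62, 9.30 and 7.10-fold. Among choroid plexus markers, Ttr, the thyroxine carrier transthyretin, stood at 16.8, 10.6 and 0.106 CPM, so library 3 was near 0. Sostdc1 and Folr1 had means of 8.15 ± 1.07 and 9.08 ± 3.81 CPM, and neither was near 0 in library 3.

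Genes of division and immaturity were expressed as well. All 12 cell cycle genes were expressed, with a median of 72.1 CPM. Pcna, the replication clamp, stood at 168, 191 and 169 CPM and Rrm2, a nucleotide reductase subunit, at 107, 108 and 105 CPM. Top2a, a topoisomerase of dividing cells, stood at 311, 101 and 283 CPM, lowest in library 2. Sox2, a progenitor transcription factor, had 483 ± 39.0 CPM, while the neurogenic factors Neurog2 and Eomes had 0.251 and 0.0542 CPM. Of 31 genes of reactive astrocytes 28 were expressed. S100a10, an annexin partner, had 559 ± 41.3 TPM, S1pr3, a sphingosine-1-phosphate receptor, 267 ± 73.5 TPM and Serpina3n, a protease inhibitor, 236 ± 120 TPM. Lcn2, lipocalin, often used as a mark of strong reactivity, stood at 3.86 CPM.

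Of 258 receptor genes 198 (76.7%) were expressed. The share of all protein-coding genes that were expressed was 60.0%. The receptor lists were chosen for this tissue with earlier results of these data known, so nothing is read from the difference. Among class B peptide receptors, the family of VIP and PACAP receptors, 7 of 14 genes were expressed by their mean, and 4 reached 1 CPM in each library. Adcyap1r1 stood at 79.7, 98.0 and 110 CPM (95.9 ± 15.2). Vipr2 stood at 2.23, 1.15 and 0.849 CPM (1.41 ± 0.729) and Vipr1 at 0.156, 0.345 and 0.531 CPM (0.344 ± 0.187). Without library 1 the mean of Vipr2 was 0.9995 CPM, just under the level called expressed. Per kilobase Adcyap1r1 exceeded Vipr2 by 24.1, 57.6 and 87.5-fold, so the order held in each library while the size of the ratio, which rests on few Vipr2 counts, did not. Ramp1, an accessory protein of calcitonin-family receptors, was the highest of the list with 123 ± 41.8 TPM, and Pth1r had 5.94 ± 1.31 TPM. Creb1 stood at 67.2, 21.2 and 55.7 CPM (48.0 ± 23.9), lowest in library 2.

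Other peptide and amine receptors were led by a few genes. Ednrb, the endothelin B receptor of astrocytes, stood at 780, 338 and 1055 CPM (724 ± 362), and per kilobase it exceeded Ednra in each library by at least 53.5-fold. Only 8 of 20 neuropeptide receptors were expressed, Sstr2 (88.6 ± 8.87 TPM) and Ntsr2 (21.7 ± 8.78 TPM) following Ednrb. Adrb1, the beta-1 adrenoceptor, stood at 42.5, 68.7 and 35.2 CPM and led the aminergic and muscarinic list, of which 11 of 22 were expressed. Adra1d and Adra2a, alpha adrenoceptors, had 31.2 ± 5.81 and 27.4 ± 0.705 TPM. The serotonin receptors Htr1a and Htr2c had no count.

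Glutamate, GABA and purine receptors were expressed as well. Of 22 glutamate receptor genes 16 were expressed, led by Grik5 (a kainate receptor subunit, 76.3 ± 11.0 TPM) and the AMPA receptor subunits Gria1 (55.6 ± 31.5 TPM) and Gria2 (35.7 ± 17.3 TPM). Grm5, a metabotropic receptor of young astrocytes, exceeded Grm3, that of mature ones, in each of the 3 libraries per kilobase, with means of 12.3 and 0.287 CPM. Of 15 GABA receptor genes 10 were expressed, among them Gabbr1 (32.8 ± 0.329 TPM) and Gabrb1 (21.0 ± 10.9 TPM). Library 2 was lowest for 11 of the 15 GABA and 11 of the 22 glutamate receptor genes. Without the share over all genes, nothing is read about these families from the counts. Of 18 purine receptors 13 were expressed, led by the adenosine receptor Adora1 (78.2 ± 6.71 TPM) and the ATP and ADP receptors P2ry1 (43.5 ± 12.6 TPM) and P2ry2 (26.9 ± 6.56 TPM).

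Growth factor, cytokine and lipid receptors were also described. Ddr1, a collagen receptor kinase, stood at 822, 1127 and 889 CPM (700 ± 65.3 TPM). Ntrk2, the BDNF receptor, of which astrocytes make a short form, stood at 1388, 1135 and 1578 CPM (254 ± 57.5 TPM), and Fgfrl1, a decoy-like FGF receptor, had 435 ± 109 TPM. Of the 30 growth factor receptors 27 were expressed. Tnfrsf1a, the TNF receptor, had 198 ± 36.0 TPM, Il6st, the shared chain of IL-6-family receptors, 186 ± 42.7 TPM and Csf1r, the microglial survival receptor, 181 ± 66.6 TPM, highest in library 3 as the other microglial markers were. S1pr3 and S1pr1 had 267 ± 73.5 and 232 ± 57.7 TPM, and the thrombin receptor F2r had 251 ± 14.2 TPM.

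The remaining receptor lists were expressed nearly throughout. All 14 TGF-beta, BMP and Notch receptors were expressed, led by Bmpr1a (212 ± 91.3 TPM), Notch1 (74.2 ± 4.75 TPM) and Notch2 (68.9 ± 9.36 TPM). All 12 lipoprotein and scavenger receptors were expressed, led by Scarb2 (a lysosomal membrane protein, 220 ± 43.6 TPM), Lrp1 (195 ± 8.33 TPM) and Sorl1 (184 ± 11.6 TPM). All 19 adhesion and orphan receptors were expressed, led by Gprc5b (254 ± 6.23 TPM), Adgrg1 (139 ± 22.9 TPM) and Gpr37l1 (103 ± 43.3 TPM). Of 28 nuclear receptors 23 were expressed, led by the thyroid hormone receptor Thra (175 ± 8.93 TPM), which overlaps Nr1d1 on the other strand, Nr2f1 (83.8 ± 3.91 TPM) and Nr1d2 (78.0 ± 40.8 TPM). The sex steroid receptors Esr1 and Pgr had means of 0.398 and 0.426 CPM.

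**Figure D4:**
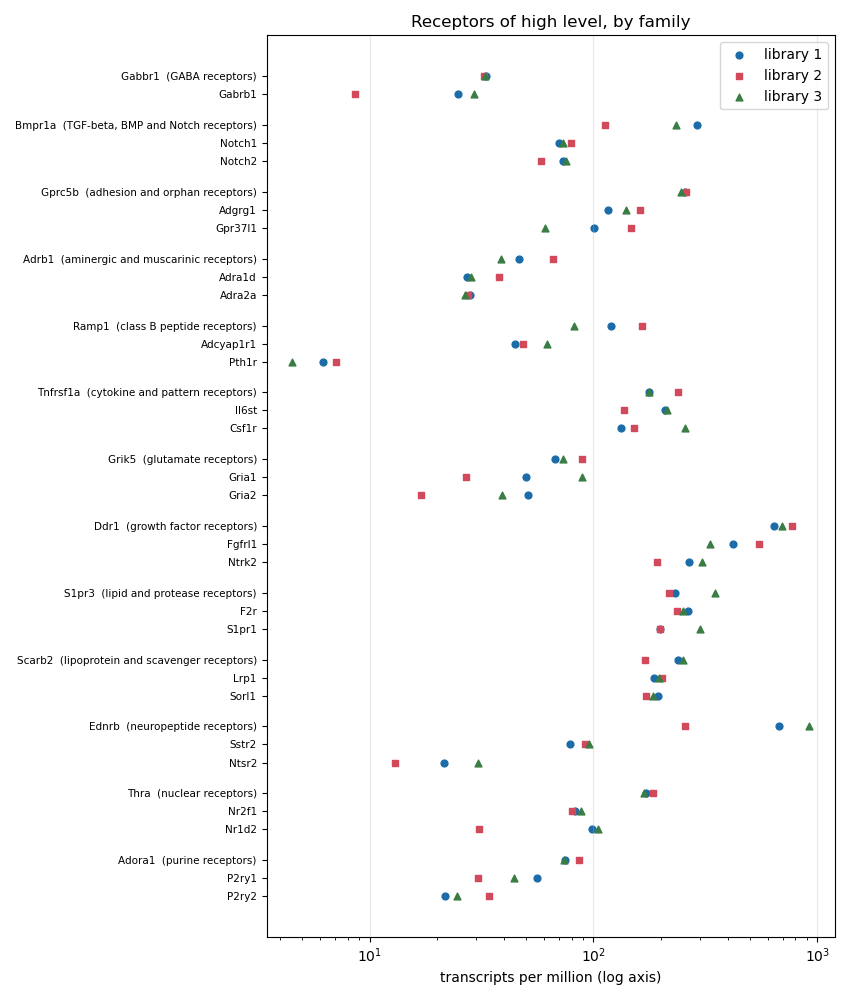
TPM per library (log x axis) of up to 3 receptor genes of high mean TPM in each of 13 families. Ddr1 and Ednrb reach the highest values. The genes lowest in library 2 (squares) include Ednrb, Bmpr1a, Nr1d2, Gabrb1 and Gria2, and also others such as Ntrk2 and Il6st.

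Of 150 transporter and channel genes 132 (88.0%) were expressed, against 60.0% of all protein-coding genes. These lists too were chosen for this tissue with earlier results of these data known, so nothing is read from the difference. Slc1a3 exceeded Slc1a2, the other astrocyte glutamate transporter GLT-1, by 14.8, 25.8 and 19.7-fold per kilobase. Slc1a2 itself stood at 216, 109 and 162 CPM, lowest in library 2. Kcnj10, the potassium channel Kir4.1 that buffers potassium, stood at 1299, 1089 and 1257 CPM (1215 ± 111). Its partner Kcnj16 stood at 20.7, 3.79 and 11.5 CPM. The two-pore channels Kcnk2 and Kcnk1 had 164 ± 6.97 and 123 ± 44.5 TPM.

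Genes of the sodium pump and of water and ion handling were also expressed. The pump's beta subunits Atp1b2 and Atp1b1 had 672 ± 120 and 508 ± 46.0 TPM. Aqp4, the water channel of endfeet, stood at 1061, 519 and 970 CPM (850 ± 290) and Gja1, connexin 43, at 364, 212 and 382 CPM (320 ± 93.5). Both were lowest in library 2. Gjc1, another connexin, stood at 19.2, 15.9 and 19.5 CPM. Slc12a4 (a potassium-chloride cotransporter), Slc4a4 (a sodium bicarbonate cotransporter) and Atp2b4 (a calcium pump) had 162 ± 35.5, 145 ± 67.9 and 132 ± 26.7 TPM.

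Fuel, amino acid, lipid and metal transporters followed. Bsg, the partner of monocarboxylate transporters, had 946 ± 125 TPM, and the lactate transporter Slc16a1 stood at 369, 367 and 359 CPM, nearly the same in each library. Slc16a1 exceeded Slc16a3 per kilobase by at least 34.5-fold in each library. The glucose transporter Slc2a1, at 92.0, 110 and 97.5 CPM, exceeded Slc2a3 per kilobase by 4.56, 4.90 and 3.38-fold. Slc3a2 (the heavy chain of amino acid exchangers), Slc38a3 (a glutamine transporter) and Slc1a4 had 343 ± 32.5, 219 ± 39.8 and 124 ± 15.4 TPM. Abca1, which exports cholesterol to lipoproteins, stood at 851, 368 and 814 CPM (237 ± 106 TPM), Mfsd2a, a lipid transporter, had 218 ± 27.6 TPM and Slco1a4 122 ± 59.0 TPM. The zinc transporters Slc39a1, Slc39a12 and Slc39a6 had 381 ± 40.5, 269 ± 70.8 and 74.3 ± 1.57 TPM.

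Of 260 genes for secreted factors 205 (78.8%) were expressed, against 60.0% of all protein-coding genes. The lists were again chosen for this tissue with earlier results of these data known, so nothing is read from the difference. Lipoproteins and binding proteins reached the highest levels, with Apoe at 7868 ± 1962 TPM, Igfbp2 at 5052 ± 2361 TPM and the protease inhibitor Cst3, cystatin C, at 4386 ± 778 TPM. Sparc had 4221 ± 350 TPM and exceeded its relative Sparcl1 by 7.66, 17.1 and 9.11-fold. Ccn1 and Ccn2, matrix proteins induced by mechanical and serum signals, had 1012 ± 178 and 500 ± 170 TPM. All 27 collagen, laminin and fibronectin genes were expressed, led by Fn1 (fibronectin, 471 ± 140 TPM), Lamb2 (310 ± 20.3 TPM) and Col5a2 (244 ± 54.0 TPM). Of the 27, 23 were highest in library 2. The share over all genes was not computed, so nothing is read about the family from this count. Gpc4, a glypican that astrocytes release to promote synapses, had 1001 ± 71.5 TPM, Ncan, neurocan, 645 ± 230 TPM and Sdc4 489 ± 92.2 TPM. Timp2, a metalloprotease inhibitor, had 1207 ± 144 TPM, the collagen chaperone Serpinh1, which stays in the endoplasmic reticulum, 768 ± 58.3 TPM and Timp3 452 ± 57.9 TPM.

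Of 34 growth and trophic factors 25 were expressed, led by Ptn (pleiotrophin, 508 ± 134 TPM), Metrn (meteorin, 335 ± 49.0 TPM) and Hbegf (an EGF receptor ligand, 249 ± 58.9 TPM). Bmp6, Sfrp1 and Tgfb3 led the TGF-beta, BMP, Wnt and hedgehog list with 224 ± 23.8, 196 ± 24.7 and 116 ± 18.9 TPM. Of 23 guidance and synaptogenic factors 19 were expressed, led by Ntn1 (171 ± 16.3 TPM), Ntn4 (160 ± 31.4 TPM) and Rgma (74.9 ± 3.94 TPM). C3, C4b and Cd59a led the complement list with 140 ± 16.6, 96.7 ± 14.5 and 53.2 ± 7.65 TPM.

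Among 29 cytokines and chemokines 16 were expressed, a share near the 60.0% of all protein-coding genes. Csf1, the ligand of Csf1r, stood at 432, 531 and 343 CPM (435 ± 94.2), and Cx3cl1, the ligand of Cx3cr1, at 110, 206 and 138 CPM (151 ± 49.7). Cxcl14 had 123 ± 21.1 TPM. The inflammatory cytokines Il6, Il1a and Il1b stood at 0.273, 0.236 and 1.18 CPM, and Il10 and Ifnb1 had no count. Among neuropeptides and granins, Scg3 and Scg5 had 259 ± 72.4 and 195 ± 23.2 TPM, while Scg2, secretogranin 2, stood at 29.0, 85.3 and 252 CPM, 8.68-fold higher in library 3 than in library 1. Vip and Adcyap1, the ligands of the VIP and PACAP receptors, were near 0 with means of 0.0383 and 0.0192 CPM.

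**Figure D5:**
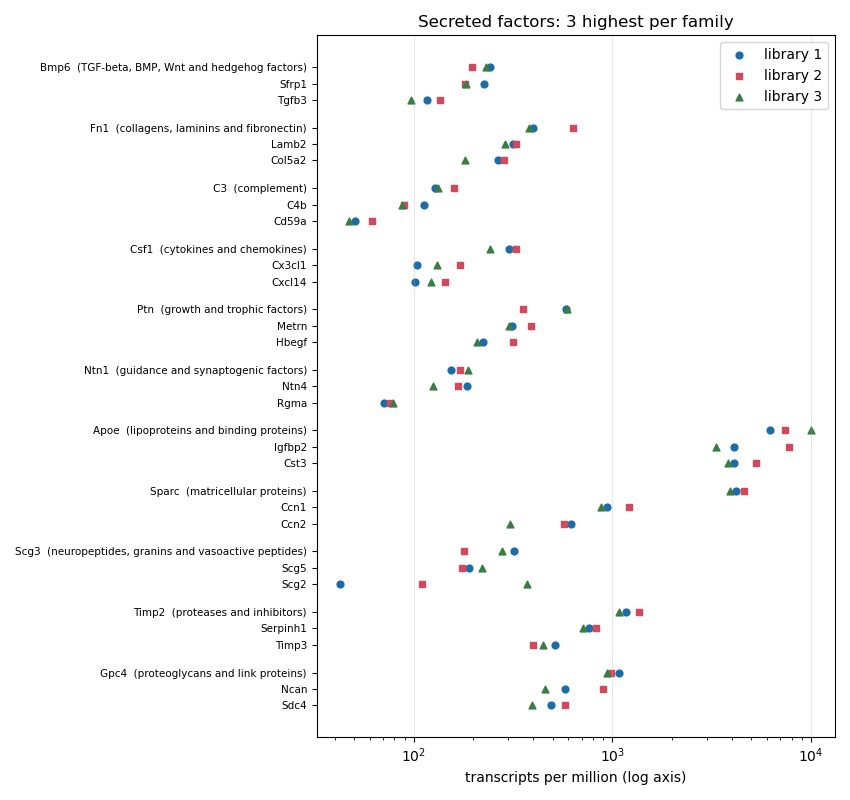
TPM per library (log x axis) of the 3 genes with the highest mean TPM in each of 11 families of secreted factors. Apoe, Igfbp2, Cst3 and Sparc lie highest, and the 3 libraries of Scg2 are the furthest apart.

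The spread between libraries differed from gene to gene and was smaller without library 2. Among the 300 genes with the highest mean CPM the median coefficient of variation was 17.7%, and between libraries 1 and 3 alone it was 5.17%. The 5 genes with the least variation were H3f3a (0.551%), mt-Nd4 (0.734%), Fabp7 (1.86%), Rps4x (2.72%) and Rpl7 (2.76%). H3f3a, a histone H3.3 gene, stood at 501, 506 and 505 CPM. The 5 with the most were Igfbp3 (55.5%), Igfbp2 (55.1%), Tmem47 (54.6%), Macf1 (52.2%) and Ahnak (51.7%). Igfbp3 and Igfbp2 were highest in library 2, while Macf1 and Ahnak, giant cytoskeletal and scaffold proteins with long transcripts, and Tmem47, with a GC content of 37.4%, were lowest there.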

How the data were processed

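Gene counts of 12 polyA RNA libraries were deposited as a single table of raw counts for 55573 gene identifiers; the libraries were strand-specific per the labels' protocols. The submitters' processing notes name Trimmomatic 0.39, STAR 2.7.1a, HTSeq 0.11.2, R 3.6.1, edgeR and GRCm38/mm10. For the strand setting in counting and the gene annotation used, the answer is "not given in the sources used here". Symbols, merged exon lengths and overlaps came from GENCODE vM21, which matched 55480 identifiers.

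CPM used TMM factors from edgeR 4.0.16 (R 4.3.3) over the 12 libraries and 16761 genes passing its count filter. TPM used merged exon length, which understates genes with many isoforms. There was no contrast, so no test was run; the calculations were tested on simulated data. The series labels define 4 groups of 3 libraries, and only the control virus with PBS group was described.

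Named were the 30 genes with the highest CPM, the 3 highest by TPM in each list, the marker genes, VIP and PACAP receptors with Creb1, markers near 0, and the 5 genes with the highest and the 5 with the lowest variation; other members named beside these were chosen after their values were seen. Members and lists were chosen with earlier results of these data known. Alternatives were other scalings, other thresholds for expression, ranking by TPM or by median, and leaving out each library. A few members of the lists are not reported here.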

Additional observations from a re-analysis of the deposited data

How the results depend on the processing

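No paired analysis was possible because a single group was described and no result came from a test. Under TMM over the 3 libraries or CPM on total counts, each result computed moved by less than the spread between replicates, or by under 1.5 times for counts and for the median coefficient of variation. The exceptions elsewhere were few. At a mean CPM of at least 5, 5 neuronal markers were expressed instead of 10, and at 1 CPM in each library 3 choroid plexus markers instead of 5. Ranking by TPM kept 18 of the 30 most abundant genes, and 19 with the longest transcript as length, an alternative chosen after seeing the data. The median coefficient of variation of all expressed genes was 20.4%, and 7.34% without library 2. Leaving out each library in turn kept 28 to 29 of the 30 genes and 13162 to 13189 expressed protein-coding genes. Without Vim the summed progenitor level was 2644 CPM instead of 9374. With 3 libraries, genes of few counts such as Vipr1 and Vipr2 are measured with little precision.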

Other observations

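Some genes outside the lists were looked at after their values had been seen. Xist, the RNA made from the inactive X chromosome of female cells, stood at 252, 110 and 208 CPM, and it overlaps Tsix on the other strand. The Y-linked genes Ddx3y, at 44.7, 7.01 and 55.4 CPM, and Eif2s3y, at 39.6, 7.65 and 43.8 CPM, were present in the same 3 libraries. Kdm5d stood at 30.7, 5.69 and 36.2 CPM. All 4 were lowest in library 2. Malat1, a long nuclear RNA, stood at 1357, 461 and 1466 CPM, also lowest in library 2. The immediate-early genes Fos and Egr1 stood at 28.5, 40.6 and 31.5 CPM and at 16.1, 24.8 and 28.8 CPM. Gm23935, a very short annotated RNA with 176 ± 32.4 CPM, had 10888 ± 1123 TPM, a value set by its annotated length.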
